A study of Homo sapiens with 12 samples.

Results

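The BCL2 family genes of the nCounter PanCancer Pathway Panel were examined in 2 human prostate cancer cell lines treated with MS13. They were chosen by name as the pro- and anti-apoptotic family members on the panel, namely BAX, BAD, BID, BNIP3, BCL2L1, BCL2 and BCL2A1, which are 7 of its 770 genes. All 7 had a probe and all 7 had enough counts to be tested among 684 genes. The groups were DU 145 cells exposed to 16 µM MS13 for 24 h, DU 145 controls, PC-3 cells given the same dose for the same time, and PC-3 controls, with 3 samples in each. MS13 is a synthetic diarylpentanoid related to curcumin, and the controls received medium with DMSO, its solvent, alone. Both are established androgen-independent lines, from a brain metastasis for DU 145 and a bone metastasis for PC-3. They were grown in different media (EMEM for DU 145 and F-12K for PC-3), so line and medium cannot be told apart in any comparison between them.

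BCL2 family proteins decide whether the outer membrane of the mitochondrion stays intact. Anti-apoptotic members such as BCL2 and BCL-XL (the main product of BCL2L1) bind and hold back BAX, which can otherwise form pores that release cytochrome c and start the caspase cascade, while BH3-only proteins such as BAD and BID shift that balance toward death. In prostate cancer, high BCL2 and BCL-XL are known for their association with resistance to androgen withdrawal and chemotherapy. DU 145 cells are known to carry a frameshift in BAX and to make little or no BAX protein. The counts below measure RNA and say nothing of protein.

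In the nCounter assay, colour-coded probes bound to RNA are counted without amplification. The totals over the panel genes ran from 437471 to 604629 counts per sample. Counts were scaled to the geometric mean of 40 housekeeping genes, and values below are these scaled counts unless called raw. A background limit was set in each group from the 8 negative probes (mean plus 2 SD), at 20.5 in MS13-treated DU 145 cells, 27.5 in DU 145 controls, 34.1 in MS13-treated PC-3 cells and 28 in PC-3 controls. PC-3 control replicates 2 and 3 showed no difference beyond the sampling noise and were counted as 1 sample, so n = 2 in PC-3 controls and n = 3 elsewhere. The housekeeping genes themselves moved against the spiked positive probes, with a ratio of 0.173 to 0.192 in MS13-treated DU 145 cells and 0.150 to 0.155 in DU 145 controls, against 0.132 to 0.142 in MS13-treated PC-3 cells and 0.141 to 0.148 in PC-3 controls. A gene was called changed at an adjusted p of 0.05 or less in edgeR's quasi-likelihood test, and a DEG where the fold was also at least 2. Of 12 replicate pairs within groups 11 differed beyond counting noise, with a chi-square over genes of 1.17 to 2.21 per degree of freedom. Since n is small, each p sets a difference against the spread of these replicates only. In the fit the spread of each gene was drawn toward that of all genes tested, so p-values and intervals rest in part on other genes.

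With housekeeping scaling the genes behaved as 3 sets. BAX, BAD and BCL2L1 fell in MS13-treated cells of both lines by 1.49- to 1.72-fold. BNIP3 fell in DU 145 and rose in PC-3 cells, and BID fell in DU 145 cells with no change past the threshold in PC-3 cells. With TMM, BNIP3 in DU 145 cells stood at 0.027 on the log2 scale with no call. The difference of the BID response between the lines was not called with TMM or positive probe scaling. BCL2 and BCL2A1 were near the background. In MS13-treated DU 145 cells 5 of the 7 members were downregulated, where 47.1% of all genes tested were downregulated and 19% upregulated, and the members' median log2 fold change was -0.66 against -0.34 over all genes. In MS13-treated PC-3 cells 4 members were downregulated, against 36.8% of all genes, and 1 was upregulated, against 21.9%, with a median of -0.57 against -0.09 over all genes. Treated and control samples did not overlap for 5 members in DU 145 cells, all lower with MS13, where 47.7% of all genes were, and for 5 lower and 1 higher in PC-3 cells, against 42% and 26.5% of all genes. Among the 5 lower in PC-3 cells, BCL2 was under its limit with MS13, and BCL2A1 was apart only with control replicates 2 and 3 summed. Taken singly, control replicate 2 of BCL2A1, at 38.7, lay below MS13-treated replicates 2 and 3, at 39.8 and 39.4. The split over all genes moved with the scaling, from 130 up and 322 down to 226 up and 203 down with TMM in DU 145 cells, and from 150 up and 252 down to 213 up and 214 down in PC-3 cells. DEGs made up 29.5% of all genes for DU 145 and 20.3% for PC-3, but the 5 members well above background changed by less than the DEG cutoff in both lines, at 1.09- to 1.72-fold.

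**Figure D1:**
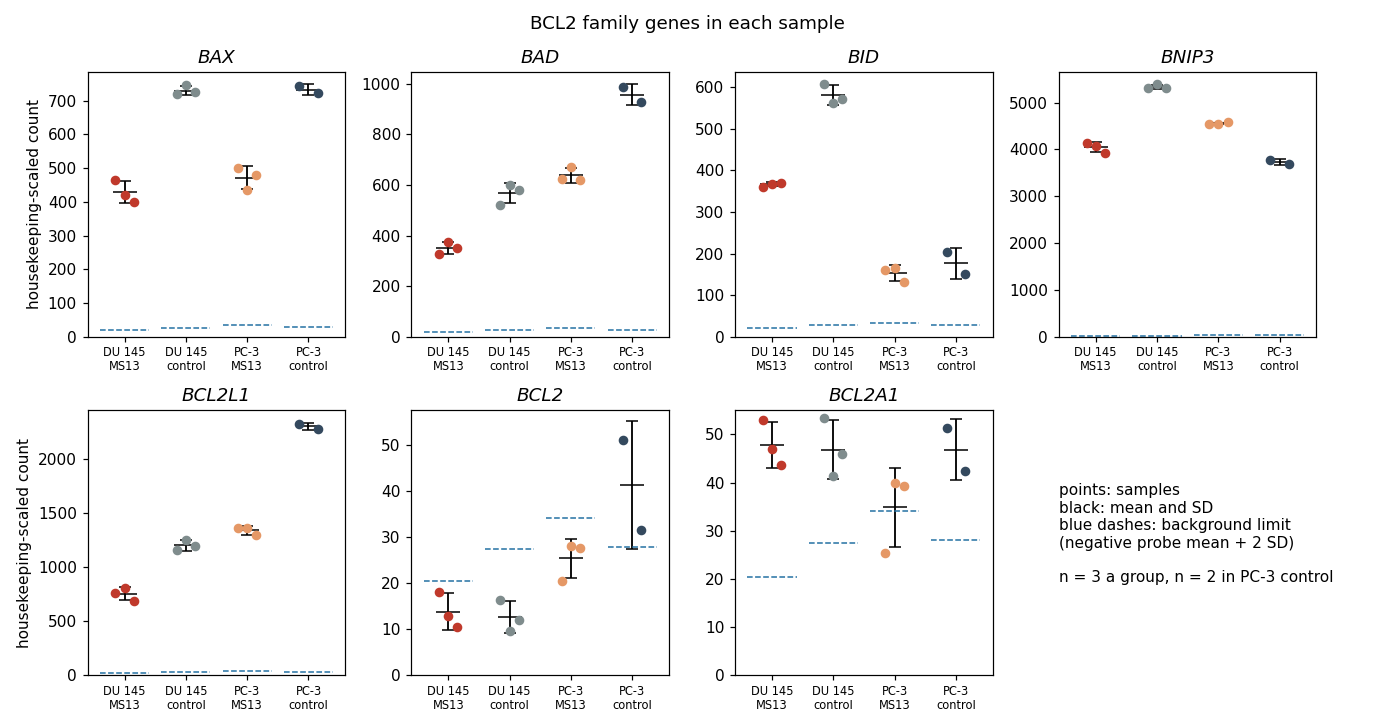
Housekeeping-scaled counts (vertical axes, starting at 0) of each BCL2 family gene in MS13-treated and control DU 145 and PC-3 cells, with points for samples, black lines for mean and SD and blue dashes for the background limit. BAX, BAD and BCL2L1 sit lower in MS13-treated cells than in controls of both lines, BNIP3 is lower in DU 145 and higher in PC-3 cells, and BCL2 lies under the limit in 3 of the 4 groups.

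BAX encodes the pore-forming effector. It read 464, 420.3 and 400.2 scaled counts in the 3 MS13-treated DU 145 samples, against 718, 745 and 724 in DU 145 controls. In PC-3 cells the MS13-treated samples gave 501, 435 and 478, against 744 and 721 in controls. Every MS13-treated sample lay below every control of its line, and the controls of the 2 lines overlapped. BAX fell 1.70-fold in DU 145 cells (log2 fold change -0.77, SE 0.057, adjusted p = 5.2e-21) and 1.55-fold in PC-3 cells (-0.63, SE 0.064, adjusted p = 1.2e-14). PC-3 minus DU 145 controls differed by 0.00 on the log2 scale, with a 95% interval of -0.11 to 0.11, although 0.22 passed the test when counts were scaled by the 10 most stable housekeeping genes. The 4 group means of BAX were, in rising order, 428 ± 32.7 in MS13-treated DU 145 cells, 471 ± 33.5 in MS13-treated PC-3 cells, 729 ± 13.9 in DU 145 controls and 732 ± 16.0 in PC-3 controls (SD). Neither the lower pair nor the upper pair differed past the threshold in that fit.

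BAD is a BH3-only protein that binds BCL-XL and BCL2, and is held inactive by phosphorylation. Its counts were 327, 373 and 349.9 in MS13-treated DU 145 cells, against 522, 598 and 582 in DU 145 controls. In PC-3 cells they were 622, 673 and 621 with MS13, against 986 and 927 in controls. No MS13-treated sample reached a control of its line, and PC-3 cells held more BAD RNA than DU 145 cells in either condition. The fall was 1.63-fold in DU 145 cells (log2 fold change -0.70, SE 0.062, adjusted p = 3.3e-17) and 1.49-fold in PC-3 cells (-0.57, SE 0.058, adjusted p = 2.1e-14). PC-3 controls exceeded DU 145 controls by 0.74 (SE 0.057), and MS13-treated PC-3 cells exceeded MS13-treated DU 145 cells by 0.87 (SE 0.063). MS13-treated PC-3 cells, at 639 ± 29.4, stood close to DU 145 controls, at 567 ± 39.9 (SD, n = 3 each), a pair that was not tested.

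BCL2L1 encodes BCL-XL, the anti-apoptotic partner of BAX and BAD. Its probe reads the gene by symbol and does not separate the long form from the pro-apoptotic short form in these files. MS13-treated DU 145 cells had 765, 808 and 687 scaled counts, against 1159.7, 1255 and 1195 in DU 145 controls. MS13-treated PC-3 cells had 1365, 1364 and 1296, against 2332 and 2282 in PC-3 controls. Treated and control samples did not overlap in either line. BCL2L1 fell 1.60-fold in DU 145 cells (log2 fold change -0.68, SE 0.049, adjusted p = 8.5e-22) and 1.72-fold in PC-3 cells (-0.78, SE 0.047, adjusted p = 1.2e-25). PC-3 cells held more of it in either condition, with PC-3 controls 1.91-fold above DU 145 controls (log2 0.94, SE 0.047, adjusted p = 7.0e-31) and MS13-treated PC-3 cells 1.79-fold above MS13-treated DU 145 cells (log2 0.84, SE 0.049). In rising order its means were 753 ± 61.0 in MS13-treated DU 145 cells, 1203 ± 48.4 in DU 145 controls, 1342 ± 39.7 in MS13-treated PC-3 cells and 2307 ± 35.4 in PC-3 controls (SD), and the middle pair was not tested.

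The promoters of the 3 genes that fell together and of BNIP3, which did not follow them in PC-3 cells, are printed from RefSeq (GRCh38.p14), from 250 bases before to 50 after the annotated start. All 7 members matched a promoter by symbol. Capitals mark CACGT or its complement ACGTG, the core of the hypoxia response element, with overlapping matches joined, so that the palindromic E-box CACGTG shows as 6 capitals. The windows are BAX at chr19:48954625-48954924 on the plus strand, BAD at chr11:64284655-64284954, BCL2L1 at chr20:31723914-31724213 and BNIP3 at chr10:131981874-131982173, the last 3 on the minus strand.
BAX: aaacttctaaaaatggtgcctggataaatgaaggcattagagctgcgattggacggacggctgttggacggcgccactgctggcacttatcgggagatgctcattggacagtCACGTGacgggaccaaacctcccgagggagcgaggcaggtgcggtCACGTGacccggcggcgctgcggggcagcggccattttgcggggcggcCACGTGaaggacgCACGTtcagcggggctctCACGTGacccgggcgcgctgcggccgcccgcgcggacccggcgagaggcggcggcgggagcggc
BAD: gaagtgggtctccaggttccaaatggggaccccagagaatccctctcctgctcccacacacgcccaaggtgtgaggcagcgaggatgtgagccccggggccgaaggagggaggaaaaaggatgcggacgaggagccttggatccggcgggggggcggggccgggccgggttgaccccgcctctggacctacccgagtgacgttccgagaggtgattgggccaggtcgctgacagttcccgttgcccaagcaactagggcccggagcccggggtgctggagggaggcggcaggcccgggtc
BCL2L1: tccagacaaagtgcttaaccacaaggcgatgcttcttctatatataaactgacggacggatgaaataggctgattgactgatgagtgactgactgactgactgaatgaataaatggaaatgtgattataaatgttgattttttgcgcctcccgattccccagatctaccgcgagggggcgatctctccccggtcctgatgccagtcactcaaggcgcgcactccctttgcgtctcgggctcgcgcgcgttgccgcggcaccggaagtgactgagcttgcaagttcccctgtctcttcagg
BNIP3: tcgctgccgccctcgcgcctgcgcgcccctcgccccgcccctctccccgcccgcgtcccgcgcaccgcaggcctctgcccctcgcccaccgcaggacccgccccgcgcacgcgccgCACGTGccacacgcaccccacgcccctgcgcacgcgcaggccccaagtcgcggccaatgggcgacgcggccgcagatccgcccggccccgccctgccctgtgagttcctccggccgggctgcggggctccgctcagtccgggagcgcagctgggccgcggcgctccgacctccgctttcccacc
BAX held 5 marked sites, of which 4 were E-boxes, and BNIP3 held 1, an E-box, while BAD and BCL2L1 had none in this window. Over 35116 RefSeq promoters of the same length, 21.4% held ACGTG on either strand and 7.26% held CACGTG, which contains it. No marked site was shared by the 3 genes that fell together. The CCAAT box (CCAAT or ATTGG, 34.6% of promoters) was in BAX, BAD and BNIP3, and the GC box (GGGCGG or CCGCCC, 45% of promoters) in BAX, BAD, BID and BNIP3. Further motifs searched on both strands were the cyclic AMP response element TGACGTCA (1.85% of promoters), the AP-1 site TGANTCA (7.71%), the CHOP-C/EBP composite TGATGCAAT (0.236%) and the E2F site TTTCCCGC (1.63%). These letters were not in the window of any member. The BNIP3 window was the richest in G and C among the members at 80.7%, against 67.3% in BAX, 68.3% in BAD and 52% in BCL2L1.

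BID is the BH3-only protein that caspase-8 cleaves, which links death receptors to mitochondria. It was 361, 368 and 369.9 in MS13-treated DU 145 cells, against 607, 562 and 571 in DU 145 controls. In PC-3 cells it was 161, 166 and 131 with MS13, against 203 and 150.3 in controls. The groups were apart in DU 145 cells and overlapped in PC-3 cells. BID fell 1.58-fold in DU 145 cells (log2 fold change -0.66, SE 0.064, adjusted p = 1.2e-15), and in PC-3 cells the log2 fold change of -0.13 (SE 0.11, 95% interval -0.35 to 0.09) did not pass (adjusted p = 0.34). The lines differed most in this gene among the members measured above background. PC-3 controls lay 3.44-fold below DU 145 controls (log2 -1.78, SE 0.082, adjusted p = 4.4e-33), and MS13-treated PC-3 cells lay 2.38-fold below MS13-treated DU 145 cells (log2 -1.25, SE 0.089). Both differences were DEGs, as were 12.9% of all genes downward between the controls and 9.5% between the treated cells. In rising order BID averaged 153 ± 19.0 in MS13-treated PC-3 cells, 177 ± 37.2 in PC-3 controls, 366 ± 4.88 in MS13-treated DU 145 cells and 580.0 ± 23.8 in DU 145 controls (SD), and the 2 lowest groups overlapped.

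BNIP3 is an outer-membrane protein with a BH3-like region that is known as a target of HIF1 in hypoxia and as a receptor for mitophagy, the removal of mitochondria. Its probe gave the highest counts of the family, at 4140.1, 4082 and 3923 in MS13-treated DU 145 cells, against 5308, 5387 and 5319 in DU 145 controls. In PC-3 cells it was 4549, 4539 and 4576 with MS13, against 3781 and 3679.6 in controls. The samples did not overlap in either line, and the order of treated and control cells was opposite in the 2 lines. BNIP3 was downregulated 1.32-fold in DU 145 cells (log2 fold change -0.40, SE 0.034, adjusted p = 6.4e-18), a direction that TMM scaling turned to 0.027 with no call (adjusted p = 0.50), and upregulated 1.22-fold in PC-3 cells (0.29, SE 0.039, adjusted p = 5.9e-10). The rise in PC-3 cells held under each alternative run, at 0.22 to 0.48. PC-3 controls were 1.43-fold below DU 145 controls (log2 -0.52, SE 0.039), whereas MS13-treated PC-3 cells were 1.13-fold above MS13-treated DU 145 cells (log2 0.17, SE 0.035), a direction that was -0.13 with TMM and -0.26 with positive probe scaling. The counting error of this probe was 1.33% to 1.72% of its raw count, against 4.13% to 10% for BID.

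BCL2 and BCL2A1, the other anti-apoptotic members, were scarcely measured. BCL2, the founding gene of the family, had raw counts of 24, 14 and 14 in MS13-treated DU 145 cells, against 15, 10 and 12 in DU 145 controls, all under the limit of their sample. In PC-3 cells its raw counts were 17, 24 and 21 with MS13, also under the limit, against 46, 31 and 30 in the 3 control samples as deposited, which exceeded all 8 negative probes. Expression of BCL2 above background was seen only in PC-3 controls, at 41.4 ± 14.0 scaled counts (SD, n = 2). The counted PC-3 controls were at 51.3 and 31.5, and the second lay under the limit of 34.1 in MS13-treated PC-3 cells. No least fold is therefore given between the PC-3 groups. The mean of PC-3 controls exceeded those of MS13-treated PC-3 cells and of DU 145 controls, at 1.21 and 1.51 times the limits of these groups. The fit called both differences (adjusted p = 0.037 and 5.1e-07), but the call between MS13-treated and control PC-3 cells was lost without PC-3 control replicate 1 (adjusted p = 0.39), without MS13-treated PC-3 replicate 1 (0.16), with DESeq2 (0.11), with TMM (0.16) and after subtraction of the negative probes (0.25). No fold is given for BCL2 in DU 145 cells, where both groups were under their limits.

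BCL2A1, a gene known as an NF-kB target in blood cells, had raw counts of 70, 51 and 59 in MS13-treated DU 145 cells, against 49, 43 and 46 in DU 145 controls. In PC-3 cells it had 21, 34 and 30 with MS13, against 46, 37 and 45 in the control samples as deposited. All but 1 sample, MS13-treated PC-3 replicate 1, were above their own limit. After scaling, the DU 145 groups overlapped at 47.8 ± 4.70 with MS13 and 46.9 ± 6.13 in controls (SD, n = 3 each, log2 fold change 0.04, SE 0.17, adjusted p = 0.86), although TMM scaling gave a call at 0.47 (adjusted p = 0.010). In PC-3 cells they were 34.8 ± 8.28 with MS13 and 46.8 ± 6.32 in controls (log2 fold change -0.38, SE 0.20, adjusted p = 0.10), and positive probe scaling gave a call at -0.45 (adjusted p = 0.048). At these counts a raw value carried a counting error of 12% to 21.8%. The 95% interval of the log2 fold change was -0.29 to 0.37 in DU 145 and -0.79 to 0.03 in PC-3 cells, and the PC-3 interval holds both 0 and the change of BAX in that line.

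**Figure D2:**
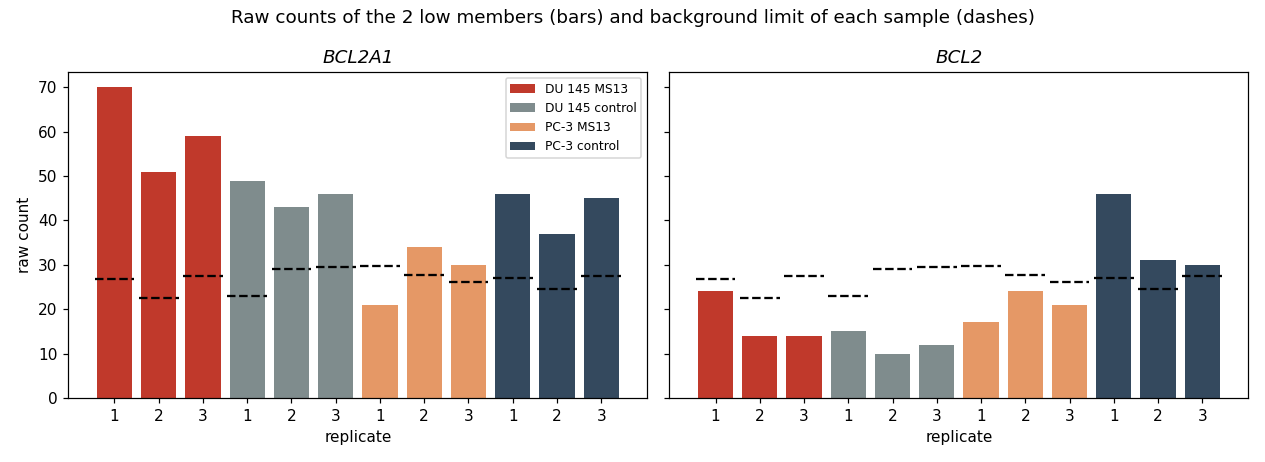
Raw counts (vertical axis, from 0) of BCL2A1 and BCL2 in each of the 12 samples, MS13-treated beside control within each line, with dashes at the background limit of the sample. BCL2 bars reach above the dashes only in the 3 PC-3 controls, and BCL2A1 bars do so in all samples but MS13-treated PC-3 replicate 1.

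Whether the response to MS13 differed between the lines was tested with the interaction (log2 fold change in PC-3 minus that in DU 145 cells). Of the 7 members 2 were called, both upward, where 32% of all genes tested were called upward and 18% downward. For BNIP3 the difference was 0.69 (SE 0.052, adjusted p = 6.7e-20), and it stayed called at 0.35 to 0.75 under every alternative run. For BID it was 0.53 (SE 0.13, adjusted p = 0.00031), but it lost the call with TMM (0.29, adjusted p = 0.054) and positive probe scaling (0.18, adjusted p = 0.30). BAX differed by 0.13 (95% interval -0.04 to 0.31), BAD by 0.13 (-0.04 to 0.30) and BCL2L1 by -0.10 (-0.23 to 0.04), none of them called. The sign for BAX and BAD turned with TMM (-0.11 each) and positive probe scaling (-0.21 for BAX and -0.22 for BAD), again with no call. BCL2L1 was called downward with TMM (-0.34) and with positive probe scaling (-0.44), and without MS13-treated DU 145 replicate 3 (-0.16, adjusted p = 0.038). BCL2A1, at -0.42 (SE 0.26, adjusted p = 0.19), was called with those 2 scalings, at -0.66 and -0.77. BCL2 was at -0.74 (SE 0.42, adjusted p = 0.14) and was called at -0.97 with TMM and -1.08 with positive probe scaling, but rests on 3 groups under their limits.

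Because the median gene also shifted, the members were set against it. The median log2 fold change of all genes tested in DU 145 cells was -0.34 with housekeeping scaling, 0.08 with TMM and -0.07 with positive probe scaling, and in PC-3 cells it was -0.09, 0.10 and -0.16. Relative to that median BAX stood at -0.42 to -0.43 in DU 145 cells and -0.55 in PC-3 cells over the 4 scalings. BAD stood at -0.36 in DU 145 cells and -0.48 to -0.49 in PC-3 cells, and BCL2L1 at -0.34 in DU 145 cells and -0.69 in PC-3 cells. BNIP3 was at -0.06, next to the median, in DU 145 cells and at 0.37 to 0.38 in PC-3 cells. BID was at -0.32 in DU 145 cells and close to the median in PC-3 cells, at -0.05 to -0.04. BCL2A1 was at 0.38 in DU 145 cells and -0.29 in PC-3 cells, and BCL2, with PC-3 controls alone above the limit, at -0.51 in PC-3 cells. A scaling factor shifts all genes of a sample alike, so these distances are fixed by construction and are no sign of stability.

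**Figure D3:**
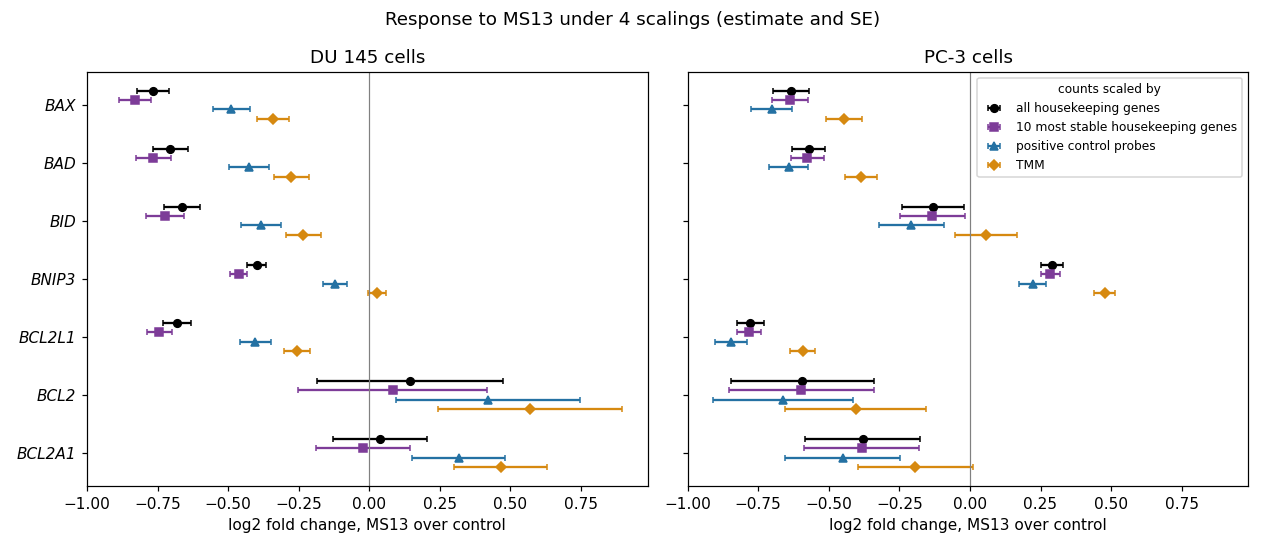
Log2 fold change of MS13 over control (horizontal axis, points with SE bars) of the 7 members in DU 145 and PC-3 cells with counts scaled in 4 ways. In DU 145 cells TMM and positive probe scaling move all points to the right and bring BNIP3 to 0.027 and -0.12, while BAX, BAD and BCL2L1 stay below 0 in both lines.

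Ratios of raw counts within a sample need no scaling. A ratio of 2 probes is not a ratio of transcripts, since probes differ in efficiency, so only its shift between groups is read. Each of 7 ratios was tested in each line by a two-sided exact permutation test, 14 tests in all, and neither 3 against 3 nor 3 against 2 samples can give a p below 0.1. The BNIP3 to BAX ratio was 8.92, 9.71 and 9.80 in MS13-treated DU 145 cells, against 7.39, 7.23 and 7.34 in DU 145 controls. In PC-3 cells it was 9.08, 10.4 and 9.57 with MS13, against 5.08 and 5.10 in controls. It was higher with MS13 in every sample, 1.29-fold in DU 145 and 1.90-fold in PC-3 cells (exact permutation p = 0.1 each, 0.23 after Benjamini-Hochberg adjustment). BNIP3 over BCL2L1 shifted likewise, 1.21-fold in DU 145 and 2.10-fold in PC-3 cells, with the same p-values.

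The balance of anti-apoptotic BCL2L1 and pro-apoptotic BAX RNA was read from their ratio, which was 1.65, 1.92 and 1.72 in MS13-treated DU 145 cells, against 1.61, 1.69 and 1.65 in DU 145 controls. In PC-3 cells it was 2.73, 3.14 and 2.71 with MS13, against 3.13 and 3.16 in controls. The groups overlapped in both lines, with shifts of 1.07-fold in DU 145 and 0.905-fold in PC-3 cells (exact permutation p = 0.3, adjusted 0.42, each). BCL2L1 over BAD did not shift beyond its spread in DU 145 cells (1.01-fold, exact p = 0.9, adjusted 0.9), and was 0.871-fold in PC-3 cells with no overlap (exact p = 0.1, adjusted 0.23). BCL2L1 over BID was 0.99-fold in DU 145 cells (exact p = 0.8, adjusted 0.9) and 0.667-fold in PC-3 cells with no overlap (exact p = 0.1, adjusted 0.23). BID over BAX was 1.36-fold in PC-3 cells with no overlap (exact p = 0.2, adjusted 0.4), the lowest treated sample at 0.275 and the highest control at 0.273. In DU 145 cells it was 1.08-fold with overlap (exact p = 0.3, adjusted 0.42).

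**Figure D4:**
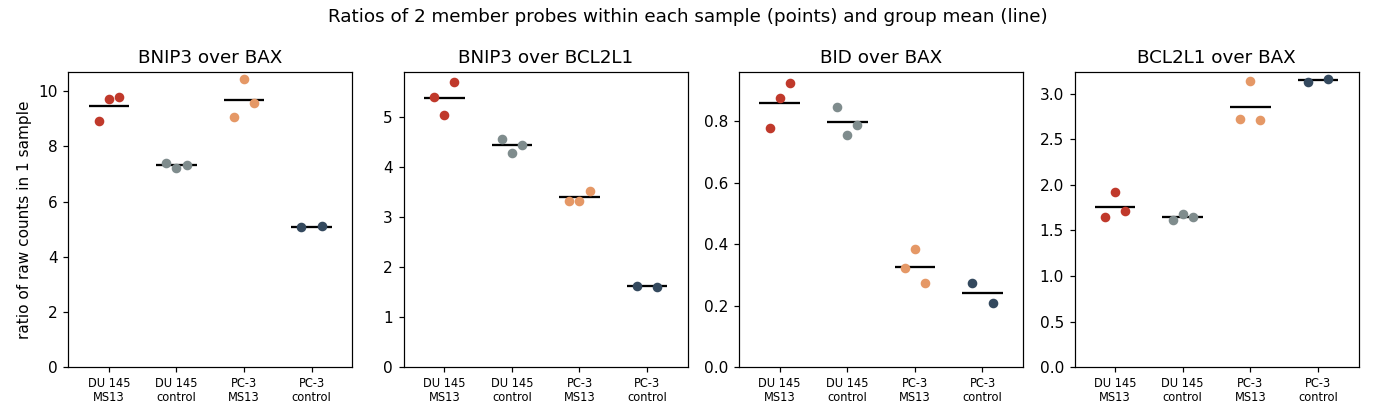
Ratios of raw counts of 2 member probes within each sample (vertical axes, from 0) in MS13-treated and control cells of both lines, with a line at the group mean. BNIP3 over BAX and over BCL2L1 are higher in all MS13-treated samples than in the controls of their line, while BCL2L1 over BAX overlaps between treated and control cells.

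The lines were also compared with each other. Of the 7 members 3 were higher and 2 lower in PC-3 than in DU 145 controls, where 36% of all genes tested were higher and 31% lower. BCL2L1, BAD and BCL2 were higher, and BID and BNIP3 lower. BCL2A1 differed by -0.04 (SE 0.18, adjusted p = 0.86) and BAX, as above, by 0.00. In MS13-treated cells 4 were higher and 2 lower in PC-3 than in DU 145 cells, against 48.4% and 25.6% of all genes. There BCL2, with both groups under their limits, can have no direction, and BCL2A1, lower by 0.46 (SE 0.19, adjusted p = 0.025), lost its call with DESeq2 and without replicate 1 of either treated group. BAX, at 0.14 (adjusted p = 0.053), was not called, and its direction hung on the scaling. It was called lower with TMM (-0.17, adjusted p = 0.018) and positive probe scaling (-0.30, adjusted p = 0.00014), and higher with the 10 most stable housekeeping genes (0.41, adjusted p = 2.5e-07).

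The profile of each member over the 4 group means (centred log2 values) was set against the other genes with a mean of at least 50, with the root mean square difference as the measure of likeness. BAD and BCL2L1 were nearest to each other among 431 candidates, at 0.080. BAX lay nearest to DLL3, a Notch ligand, at 0.021, then PPP3CA and IKBKB. BNIP3 lay nearest to B2M at 0.084, CASP8 at 0.086 and RPS27A at 0.10. The nearest genes to BID, namely FANCC, VEGFA and IL20RB, were 0.21 to 0.25 away. BCL2 was nearest to MYD88, HDAC1 and EPHA2 (0.12 to 0.15), and BCL2A1 to POLR2D, NASP and EZH2 (0.067 to 0.11), 2 profiles that rest on low counts. This is a description over 4 means that share their libraries.

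The genes around the family were taken from lists by role. Of 20 kinases and phosphatases known to act on BAD, BCL2 or BCL-XL, 3 were higher and 13 lower in MS13-treated than in control DU 145 cells, and in PC-3 cells 4 were higher and 8 lower, while TMM gave 6 up and 7 down in each line. Of the 13 lower genes 3 (PAK3, PAK7 and PRKACG) were under the limit in both DU 145 groups and have no measured direction. Over all genes 19% were up and 47.1% down in DU 145 cells, and the PC-3 shares were 21.9% and 36.8%. Their median log2 fold changes were -0.56 and -0.20, beside -0.34 and -0.09 over all genes. AKT1, which phosphorylates BAD, averaged 1096 ± 25.5 in MS13-treated DU 145 cells and 2469 ± 34.7 in their controls. For MS13-treated PC-3 cells it was 1218 ± 12.8, against 2894 ± 18.5 in PC-3 controls. PIM1, another BAD kinase, had the opposite direction, with 614 ± 9.68 under MS13 in DU 145 cells, against 278 ± 6.84 in controls. In PC-3 cells PIM1 was 1059 ± 17.6 under MS13, against 439 ± 40 in controls (SD throughout). The phosphatase subunit genes were split too. PPP2CB rose (log2 fold change 1.32 for DU 145 and 1.48 for PC-3) and PPP3CB, a calcineurin subunit, fell (-1.37 and -1.20). All 4 were DEGs in both lines with housekeeping scaling. In DU 145 cells AKT1 fell short of the DEG cutoff with TMM (-0.75) and positive probe scaling (-0.90), and PPP3CB with TMM (-0.94).

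In the death receptor arm that leads to BID, 9 genes were tested, of which 3 were higher and 4 lower with MS13 in DU 145 cells (3 and 2 with TMM), 1 of the 4, CASP10, under the limit in both groups. PC-3 cells showed 2 of them up and 2 down (3 up with TMM), and the medians were -0.35 (DU 145) and 0.14 (PC-3), beside -0.34 and -0.09 over all genes. Of 6 genes downstream of mitochondria, DU 145 cells had 1 up and 3 down and PC-3 cells 2 up and 2 down (1 more up in each line with TMM), with medians of -0.65 and 0.00. These shares, like those of the transcription factors that follow, stand beside the same all-gene shares and medians. ENDOG, a mitochondrial nuclease gene, fell in both lines (log2 fold change -1.48 for DU 145 and -1.32 for PC-3). BIRC3, an inhibitor of apoptosis gene, fell in DU 145 cells (-1.16) and was under the limit in MS13-treated PC-3 cells. Of 12 transcription factors known to act on BCL2 family genes, DU 145 cells had 4 up and 6 down (6 up and 3 down with TMM) and PC-3 cells 5 up and 3 down, with medians of -0.22 and -0.03. DDIT3, which encodes the stress factor CHOP, had the largest rise among them in both lines, at 6112 ± 163 in MS13-treated DU 145 cells, against 639 ± 31.4 in controls. Its level in PC-3 cells was 4069 ± 108 with the compound, against 563 ± 6.39 without. JUN rose by 1.45 (DU 145) and 1.85 (PC-3) on the log2 scale. The 12 further BCL2 family genes listed, such as MCL1 and BAK1, were not among the 770 panel genes and could not be tested.

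Summed counts of genes listed as leukocyte markers were lower with MS13 in both lines. Sums of listed stromal genes were lower in DU 145 cells, while those of PC-3 cells overlapped. Both lists were read in cultured cell lines, so a sum is no count of other cells. Most genes of both lists were under the limit, so the sums hold much background. In DU 145 cells that limit was itself lower with MS13, at 20.5 against 27.5 in controls. The sums there give no direction for the genes under it. Of 9 leukocyte genes on the panel 1 to 3 were above the limit in a group, with PTPRC not among them, and their summed level was 94.7 to 118 in MS13-treated DU 145 cells against 165 to 189 in controls. In PC-3 cells that sum was 412 to 475 with MS13, against 677 to 707 in controls. Of 10 stromal genes 2 to 3 were above the limit (TNC, FN1 or COL5A1), with sums of 215 to 241 in MS13-treated DU 145 cells, against 304 to 339 in controls. PC-3 cells had 1921 to 2040.5 with MS13, against 1909 to 1971 in controls. Any relation of these sums to the levels of the BCL2 family genes was not tested.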

How the data were processed

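Total RNA of 12 samples was hybridised to the nCounter PanCancer Pathway Panel by the authors. The deposited values are raw counts per probe, 784 in all, of 770 genes with 8 negative and 6 positive control probes, with no background subtraction or normalization. The authors' own housekeeping normalization in nSolver is not in them. Totals of 437471 to 604629 counts set the counting error of each probe.

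The software was edgeR 4.0.16 (limma 3.58.1, R 4.3.3), with DESeq2 1.42.0 as an alternative. The geometric mean of 40 housekeeping genes gave the scaling. Genes with a mean of at least 10 counts were kept, and 684 were tested by the quasi-likelihood F-test (glmQLFit, glmQLFTest) in 1 fit of 4 groups, with Benjamini-Hochberg adjustment over all of them at 0.05. A DEG also had a fold of at least 2, as in the methods of the study. The contrasts were MS13 against control in each line, their difference, and PC-3 against DU 145 cells among controls and among treated cells.

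PC-3 control replicates 2 and 3 gave a chi-square of 1.04 per degree of freedom over genes (p = 0.20), against 1.17 to 2.21 in the other 11 pairs within a group, and were summed, which leaves 11 samples. The labels name biological replicates and technical repeats without saying which samples are which, so p-values measure the spread between these samples, shared in part over genes.

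Alternatives were DESeq2, TMM scaling, the positive probes or the 10 most stable housekeeping genes (geNorm measure) as the scaling, subtraction of the negative probe mean, a minimum mean of 50 or none, separate fits per line, 12 separate samples with and without a replicate block, and each replicate left out in turn. The fit was also run on simulated data of 682 genes for MS13 against control in DU 145 cells. It recovered 52.4% of changes of 1.25-fold, 83.6% of 1.5-fold, 98.1% of 2-fold and 100% of 4-fold. In that simulation 1.03% of unchanged genes were called. How these rates move when the housekeeping genes shift, as they did against the positive probes here, was not tested.

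Every member is named in each comparison, with no fold for BCL2 where both groups lay under their limits. Of the other lists, genes are named that were DEGs in the same direction in both lines with no overlap of samples, at most 4 a list, and for likeness the 3 nearest genes. The members and lists were chosen with earlier results of these data known. Probe and protein sequences were not used here. Single values of some listed genes are not reported here.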

Additional observations from a re-analysis of the deposited data

Results flagged for a closer look

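Of the 7 BCL2 family genes, 2 responded differently to MS13 in the 2 lines with housekeeping scaling. The test was of the difference itself (the interaction in edgeR's quasi-likelihood fit). Both were called upward, where 32% of all genes tested were called upward and 18% downward. For BNIP3 the log2 fold change in PC-3 cells minus that in DU 145 cells was 0.69 (SE 0.052, adjusted p = 6.7e-20), with all 3 MS13-treated PC-3 samples above both counted controls and all 3 MS13-treated DU 145 samples below all 3 controls. For BID it was 0.53 (SE 0.13, adjusted p = 0.00031), with the 3 MS13-treated DU 145 samples below their controls and overlapping groups in PC-3 cells. The housekeeping genes stood higher against the positive probes in MS13-treated than in control DU 145 cells and lower in MS13-treated than in control PC-3 cells, at ratios of 0.173 to 0.192 in MS13-treated DU 145 cells, against 0.150 to 0.155 in DU 145 controls, and of 0.132 to 0.142 in MS13-treated PC-3 cells, against 0.141 to 0.148 in PC-3 controls. With TMM and with positive probe scaling the BNIP3 difference was 0.45 and 0.35, both called, and the BID difference was 0.29 (adjusted p = 0.054) and 0.18 (adjusted p = 0.30).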

How the results depend on the processing

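Over all members, comparisons and alternatives, 680 values kept their direction and their side of the threshold, 15 lost the call, 17 gained one and 27 changed direction, of which 5 were past the threshold before or after. BAX, BAD and BCL2L1 fell in both lines under every alternative, at -0.83 to -0.34, -0.77 to -0.28 and -0.74 to -0.25 in DU 145 cells and at -0.70 to -0.45, -0.64 to -0.39 and -0.85 to -0.59 in PC-3 cells. Those 5 came with scaling. BNIP3 in DU 145 cells was 0.027 with TMM. In MS13-treated PC-3 against MS13-treated DU 145 cells BAX was -0.17 with TMM and -0.30 with positive probes, and BNIP3 was -0.13 and -0.26. The others were never called. For the interaction, TMM and positive probes gave -0.11 and -0.21 for BAX and -0.11 and -0.22 for BAD. BID in PC-3 cells was 0.056 with TMM, and BCL2A1 with the 10 most stable housekeeping genes was -0.023 in DU 145 cells and 0.17 between the controls. BAX between the controls was -0.060 with TMM, -0.083 with positive probes, -0.0013 with 12 separate samples and -0.0021 with a replicate block too. With single replicates left out, BCL2 in DU 145 cells ran from -0.12 to 0.36, BCL2A1 from -0.048 to 0.14, BID in PC-3 cells from -0.25 to 0.032, and between the controls BAX from -0.016 to 0.027 and BCL2A1 from -0.14 to 0.058.

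Counts of members called moved by over 1.5 times in 3 comparisons. In PC-3 cells 3 to 5 members were called down, against 4, and between the controls 2 to 4 up, against 3. With TMM 1 member, BCL2A1, was called up and 4 down in DU 145 cells. The interaction had 1 member up and 3 down with TMM and the same counts with positive probes, and 0 to 1 down when single replicates were left out, the 1 being BCL2L1 without MS13-treated DU 145 replicate 3. MS13-treated PC-3 against MS13-treated DU 145 cells had 2 up and 4 down with TMM and with positive probes, 1 down with DESeq2, with the 10 most stable housekeeping genes and with a minimum mean of 50 (which leaves out BCL2A1), and 1 to 2 down without single replicates (1 without replicate 1 of either treated group). Over all genes, TMM gave 226 up and 203 down in DU 145 cells, against 130 and 322 with housekeeping scaling, and 213 and 214 in PC-3 cells, against 150 and 252. For the interaction the counts were 129 and 190 with TMM and 94 and 217 with positive probes, against 219 and 123. MS13-treated PC-3 against MS13-treated DU 145 cells gave 184 up with positive probes, against 331. The cause was not tested.

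Same-numbered samples did not deviate together (correlations of -0.20 to 0.035 over 6 pairs). Whether the numbers pair the samples stays unknown, since deviations within such small groups hold much counting noise. With 12 separate samples BAX in MS13-treated PC-3 against MS13-treated DU 145 cells was called without a replicate block (0.14, adjusted p = 0.050) and with it (0.14, adjusted p = 0.046), and the block changed no call among the members. Depth limits BCL2 and BCL2A1, with raw counts of 10 to 46 and 21 to 70.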
